A study of Mus musculus with 6 samples.

Results

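The cytosolic chaperonin CCT, also called TRiC, is encoded by 8 genes: Tcp1, Cct2, Cct3, Cct4, Cct5, Cct6a, Cct7 and Cct8. The members were taken by gene symbol from the count table, which held all 8 among its 25239 genes. The table covers 6 mouse libraries, each titled as an oocyte in the germinal vesicle (GV) state, when the nucleus is intact and meiosis has not resumed. The 3 water and 3 phthalate libraries came from CD-1 mice, an outbred stock, and the females were 4 to 6 weeks old. In both groups, complexes of an oocyte with its cumulus cells were taken from antral follicles, microinjected and then cultured at 37 °C and 5% CO2 in α-MEM with 10% serum, 200 mIU/mL FSH and 50 µg/mL pyruvate. The groups differed in what was injected, water or a mixture of phthalate metabolites, which are breakdown products of plasticizers; the labels used here do not give the mixture's members or its dose. Libraries are called oocytes here, as in their titles. The labels name no animal or culture, and the extraction protocol can be read as a single oocyte per group. Each group was therefore taken as 1 sample, and no test of a difference between them was made.

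CCT is a barrel of a pair of stacked rings, and each ring holds all 8 subunits in a fixed order. Unfolded proteins enter its cavity and are released after ATP-driven closure of a lid formed by the subunits themselves. Actins and tubulins depend on it to fold, as do several proteins with WD40 repeats, among them Cdc20 and Cdh1, the activators of the anaphase-promoting complex. An oocyte that is about to resume meiosis uses these clients for its spindle, its cortex and its cell cycle. Since every complex needs each subunit, the relative amounts of the 8 messenger RNAs are of interest beside their response to the injection.

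Promoter sequence is shown for the members at the ends of the range of levels described below: Cct5 and Cct3, the highest, and Cct7 and Cct6a, among the lowest. The sequences are those of RefSeq for GRCm38.p6 and cover 230 bases that end 20 bases before the annotated start. Capitals mark CCAAT and GGGCGG on either strand (ATTGG and CCGCCC on the other strand), which are the letters of the CCAAT box and the GC box.
Cct5 (chr15:31601867-31602096, minus strand): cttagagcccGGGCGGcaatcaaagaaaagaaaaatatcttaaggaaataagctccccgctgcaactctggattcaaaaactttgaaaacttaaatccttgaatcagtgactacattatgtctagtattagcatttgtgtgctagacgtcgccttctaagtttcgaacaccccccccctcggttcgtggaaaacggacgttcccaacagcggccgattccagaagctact
Cct3 (chr3:88296885-88297114, plus strand): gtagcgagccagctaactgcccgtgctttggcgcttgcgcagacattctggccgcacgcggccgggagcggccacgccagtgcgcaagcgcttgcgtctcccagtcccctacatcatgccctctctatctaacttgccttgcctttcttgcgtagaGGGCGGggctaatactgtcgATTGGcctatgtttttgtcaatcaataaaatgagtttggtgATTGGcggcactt
Cct7 (chr6:85451255-85451484, plus strand): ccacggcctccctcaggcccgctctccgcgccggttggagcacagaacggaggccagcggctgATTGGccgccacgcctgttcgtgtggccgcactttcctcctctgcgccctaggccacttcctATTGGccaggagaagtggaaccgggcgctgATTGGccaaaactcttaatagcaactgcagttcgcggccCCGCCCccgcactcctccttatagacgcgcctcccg
Cct6a (chr5:129787106-129787335, plus strand): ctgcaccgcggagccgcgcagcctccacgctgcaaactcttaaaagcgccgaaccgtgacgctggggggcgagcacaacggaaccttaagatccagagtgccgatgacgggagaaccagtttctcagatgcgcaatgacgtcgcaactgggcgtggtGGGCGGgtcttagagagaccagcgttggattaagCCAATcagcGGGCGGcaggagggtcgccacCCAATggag

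The RefSeq promoter table matched 7 of the 8 members, Cct4 being the member without an entry, and motifs were counted over windows of 250 bases before to 50 bases after a start. CCAAT was present for 4 members: Cct7 had 3 matches, Cct3 and Cct6a had 2 each and Tcp1 had 1. It occurred in 38.6% of 12902 windows of genes with a count. GGGCGG was present for all 7 in at least 1 window (Cct2 and Cct5 have 2 windows each), against 58.9% of windows. The letters of a heat shock element, GAANNTTC or TTCNNGAA, were found for 3 members, once each in Cct2, Cct5 and Cct6a. GAANNTTC occurred in 6.04% of windows and TTCNNGAA in 6.90%. These shares are per window and per motif, while a member counts with either motif in any of its windows. The figures are therefore not like for like. CACGTG and TATAAA were found for 0 of the 7, against 9.66% and 7.88% of windows. These matches are descriptions of the sequence. They did not sort the members by level, since CCAAT stood both in the promoter of Cct3 and in those of Cct7 and Cct6a.

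The 8 transcripts were present at very unequal levels. Levels of different genes are given in CPM per kilobase, that is, counts scaled to a total of 1000000 per library (CPM, with TMM factors that correct for composition) divided by the length of the longest protein-coding transcript in GENCODE M21 (for Cct6a, which has no such transcript there, its longest processed transcript of 2454 bases). Cct5 had the highest level, 435 CPM per kilobase as a mean over the 6 oocytes, and placed at percentile 98.6 of the 12543 genes with a count and a known length. Cct3 followed with 173, Cct2 with 112, Cct8 with 92.5 and Tcp1 with 67.9, at percentiles from 90.4 to 96.3. Cct7, with 21.9, and Cct4, with 12.5, were far lower, at percentiles 76.5 and 66.4. Cct6a, with 1.00, was near the limit of detection. The median over all genes with a count was 5.38.

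The order of neighbours was compared by the range of their levels over oocytes. Cct5 stood apart from Cct3 in all 6 oocytes, with a mean level 2.51 times as high. Cct3, Cct2, Cct8 and Tcp1 formed a middle group in which each gene's range overlapped with that of the next. A gap of 3.10 times then separated Tcp1 from Cct7, again without overlap. The ranges of Cct7 and Cct4 overlapped, with Cct7 higher in 5 of 6 oocytes. The order of the middle group depended on the transcript length used: with the median length over all transcripts Cct3 moved from place 2 to place 5, while Cct5 stayed first and Cct7, Cct4 and Cct6a stayed in the last places.

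Cct5 supplied 47.5% of the summed length-scaled level of the family, and Cct4, Cct6a and Cct7 together supplied 3.87%. Within single oocytes the Cct5 part ranged from 43.7% to 52.6%. The highest and the lowest member differed by 34.8 times when Cct6a was set aside. Prefoldin, the hexameric co-chaperone that hands unfolded actin and tubulin to CCT, also had subunits at unequal levels. Its levels ran from 27.1 CPM per kilobase for Vbp1 to 355 for Pfdn6, a span of 13.1 times over 6 genes. The difference between the 2 spans was not tested.

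**Figure D1:**
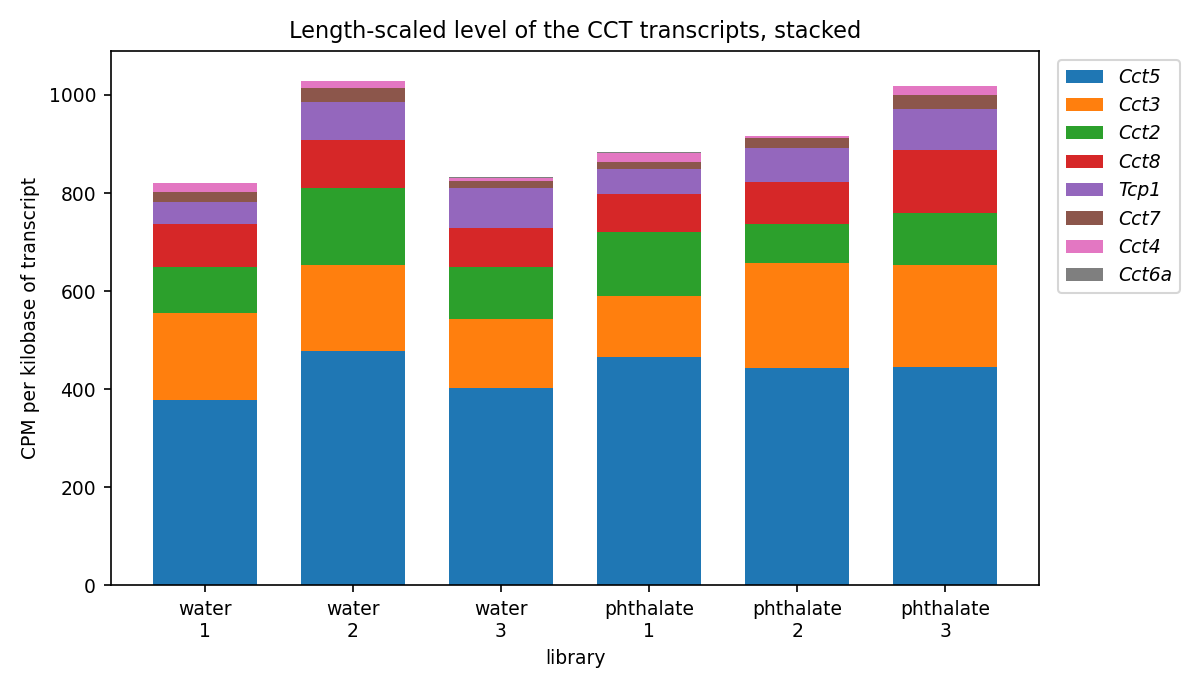
CPM per kilobase of transcript (vertical axis) of the 8 CCT genes, stacked for each of the 3 water and 3 phthalate oocytes. Cct5 is the largest block in every oocyte, and the blocks of Cct7, Cct4 and Cct6a are thin or not visible.

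Cct5 encodes the epsilon subunit and lies on the minus strand at chr15:31590800-31601804 (GRCm38). It had 194, 264 and 212 counts after water (oocytes 1, 2 and 3, the order used throughout) and 223, 248 and 212 after phthalate. In CPM these were 698, 887 and 748 against 862, 822 and 825. The phthalate values lay inside the range of the water values. The log2 ratio of phthalate over water, from counts summed per group, was 0.10 with a 95% interval from -0.056 to 0.26. That interval covers counting error only. It is the exact interval of 2 counts given their sum, and since most low counts in these libraries are even, as when both mates of a read pair are counted, the true counting error is wider. With counts halved the interval for Cct5 ran from -0.12 to 0.32.

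Cct3 encodes the gamma subunit (plus strand, chr3:88297116-88321767). It had 98, 103 and 79 counts after water and 64, 127 and 106 after phthalate. Phthalate oocyte 1 held the lowest value of all 6 and phthalate oocytes 2 and 3 the highest, so the groups overlapped. The log2 ratio was 0.16 (-0.083 to 0.40), the highest among the members. Without phthalate oocyte 1 the ratio was 0.36 and the groups no longer overlapped.

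Cct2 encodes the beta subunit (minus strand, chr10:117051001-117063814). Its counts were 51, 92 and 59 after water and 66, 47 and 53 after phthalate. Water oocyte 2 was the highest and phthalate oocyte 2 the lowest in CPM, at 309 and 156, and the other 4 lay between. The log2 ratio was -0.21 (-0.52 to 0.092), the lowest among the members. Leaving out water oocyte 2 brought it to 0.056.

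Cct8 encodes the theta subunit (minus strand, chr16:87483326-87495873). It had 58, 69 and 54 counts after water and 48, 62 and 79 after phthalate. In CPM, phthalate oocyte 3 stood above the others at 307, while the other 5 lay between 186 and 232. The log2 ratio was 0.13 (-0.17 to 0.44), and it was -0.10 without phthalate oocyte 3.

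Tcp1 encodes the alpha subunit (plus strand, chr17:12915701-12925067), the member after which the family was first named. It had 31, 56 and 56 counts after water and 32, 51 and 53 after phthalate. Oocyte 1 of each group was low, at 112 and 124 CPM, and the remaining 4 lay between 169 and 206. The log2 ratio was -0.0003 (-0.35 to 0.35).

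Cct7 encodes the eta subunit (plus strand, chr6:85451514-85468475). Its counts were low, 14, 22 and 10 after water and 10, 16 and 18 after phthalate. The values of the groups were interleaved. The log2 ratio was 0.0080 with an interval from -0.62 to 0.64, which is wider than 1.5-fold on both sides, so a difference of that size was not detectable at this depth.

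Cct4 encodes the delta subunit (plus strand, chr11:22990519-23003780). It had 12, 10 and 4 counts after water and 11, 2 and 12 after phthalate. The spread within each group exceeded the difference between them: the CPM ran from 14.1 to 43.2 in water and from 6.63 to 46.7 in phthalate. The log2 ratio was 0.016 (-0.84 to 0.87).

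Cct6a encodes the zeta subunit (plus strand, chr5:129786998-129846371). Water oocyte 3 and phthalate oocyte 1 had 2 counts each, and the other 4 oocytes had 0, which allows up to 3 counts in each of them. Both group sums were below 3 counts, so no ratio is given. Cct6b, the paralog of Cct6a known from testis, had 0 counts in all 6 oocytes, which likewise allows up to 3 counts per oocyte. Counts for the zeta subunit thus summed to 4 over both genes. Per kilobase, Cct6a was at 1.00 CPM beside 435 for Cct5, and the counting properties given below apply to Cct6a.

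**Figure D2:**
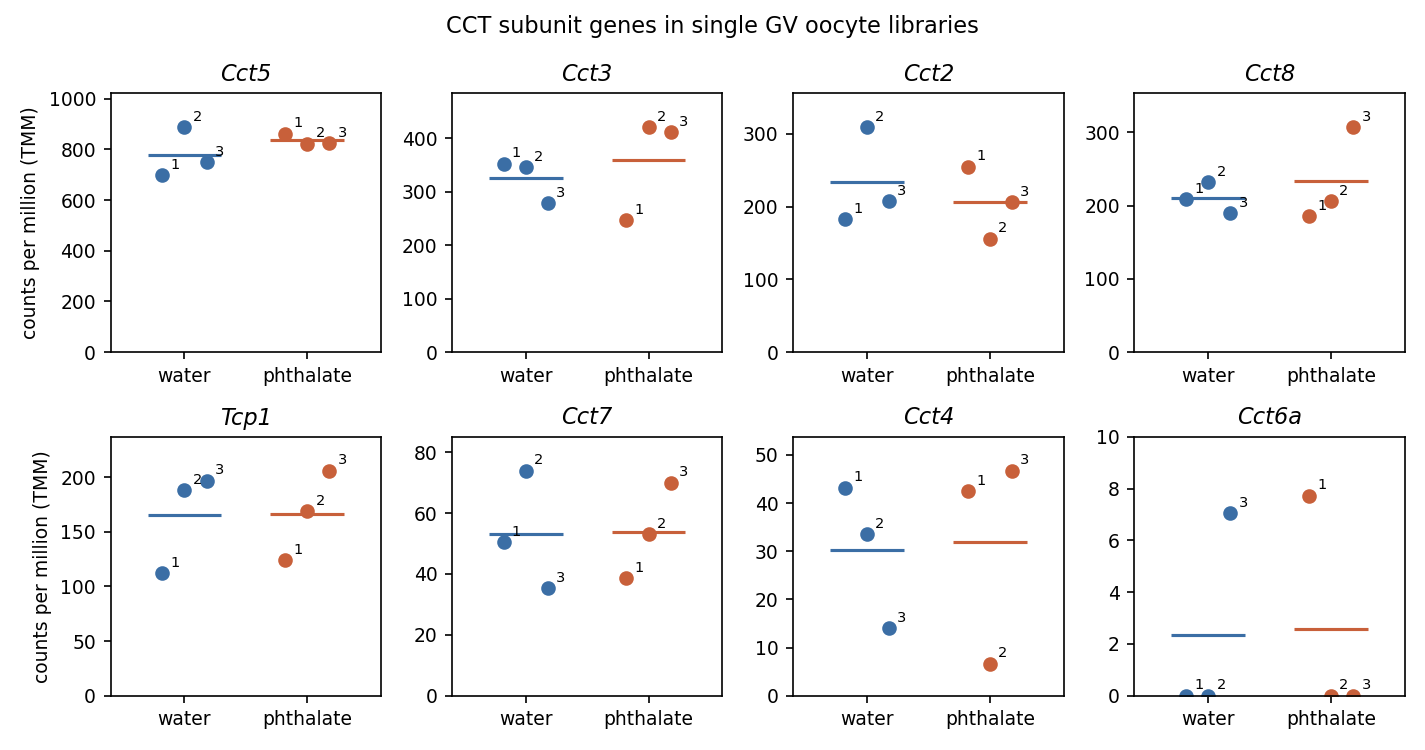
CPM (vertical axis, from 0, scaled for each gene) of the 8 CCT genes in the water and phthalate oocytes. Points are single oocytes with their replicate number, and lines are group means. The groups overlap for each gene, and Cct6a is at 0 in 4 oocytes.

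Properties of the counting bear on these levels. RefSeq lists 16 pseudogenes named after a member by symbol or synonym: 5 of Cct7, 3 each of Cct3 and Cct6a, 2 each of Tcp1 and Cct8, and 1 of Cct4. Cct2 and Cct5 have 0 by name. Copies under other names were not searched for, in these 2 genes or the rest. Reads of a member that also match a pseudogene copy may be dropped, depending on how they were counted. Levels of the copies were not analysed here. Some exonic bases are shared with a gene on the opposite strand, and whether counting used strand is not given in the sources used here. Of the exonic bases of Tcp1, 16.9% are shared with other genes, which include Acat3 and Mrpl18. The share is 15.3% for Cct6a, mostly with Psph, 6.2% for Cct8 with Usp16 and 3.2% for Cct7 with Pradc1. It is 0% for Cct2, Cct3, Cct4 and Cct5. GENCODE M21 classes Cct6a as a processed transcript and the other 7 as protein-coding, while RefSeq classes all 8 as protein-coding. The part of these properties in the low level of Cct6a, Cct7 and Cct4 was not tested.

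The library preparation primes on poly(A), so a level is that of polyadenylated RNA. In the last 100 bases of the GENCODE transcript, the poly(A) signal AATAAA was present for 5 members and absent for Cct3, Cct4 and Cct7, against 65.9% of 11858 genes with a count. TTTTAT, the letters of a cytoplasmic polyadenylation element, was present for 0 of the 8 members, against 14.9%. The search was of the transcript strand.

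None of the members separated the water from the phthalate oocytes. Of the 8, 7 passed the filter on low counts (edgeR's filterByExpr), and Cct6a did not. Of these 7, 0 were past 1.5-fold in either direction, beside 15.1% of all 4644 genes that passed (6.96% higher and 8.14% lower in the phthalate group). For the 5 members averaging 20 or more counts the number was also 0, beside 8.12% of 2784 such genes. In 0 of the 7 did the groups fail to overlap, beside 10.1% of the 4644. With 7 genes and these background shares, a count of 0 is near the background and is no result about the family. The interval of each of the 7 ratios held 0.

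The 7 ratios lay between -0.21 and 0.16, with a median of 0.016. With 1 oocyte left out, ratios of single members reached -0.39 and 0.57. The median over the 4644 genes was 0.0089, with a 5th percentile of -0.72 and a 95th of 0.66. These percentiles were -0.54 and 0.54 for genes averaging 20 or more counts, and -0.29 and 0.38 for genes averaging 100 or more. Of the 7 ratios 5 were above 0 and 2 below, and 51.2% of all genes were above 0. With library totals in place of TMM, Cct4 (-0.0016) and Cct7 (-0.0091) also fell below 0. The median distance from 0 was 0.0999 for the 7 members, 0.20 for the genes averaging 20 or more counts and 0.33 for genes below that. The 2 with the fewest counts, Cct4 and Cct7, had the widest intervals.

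**Figure D3:**
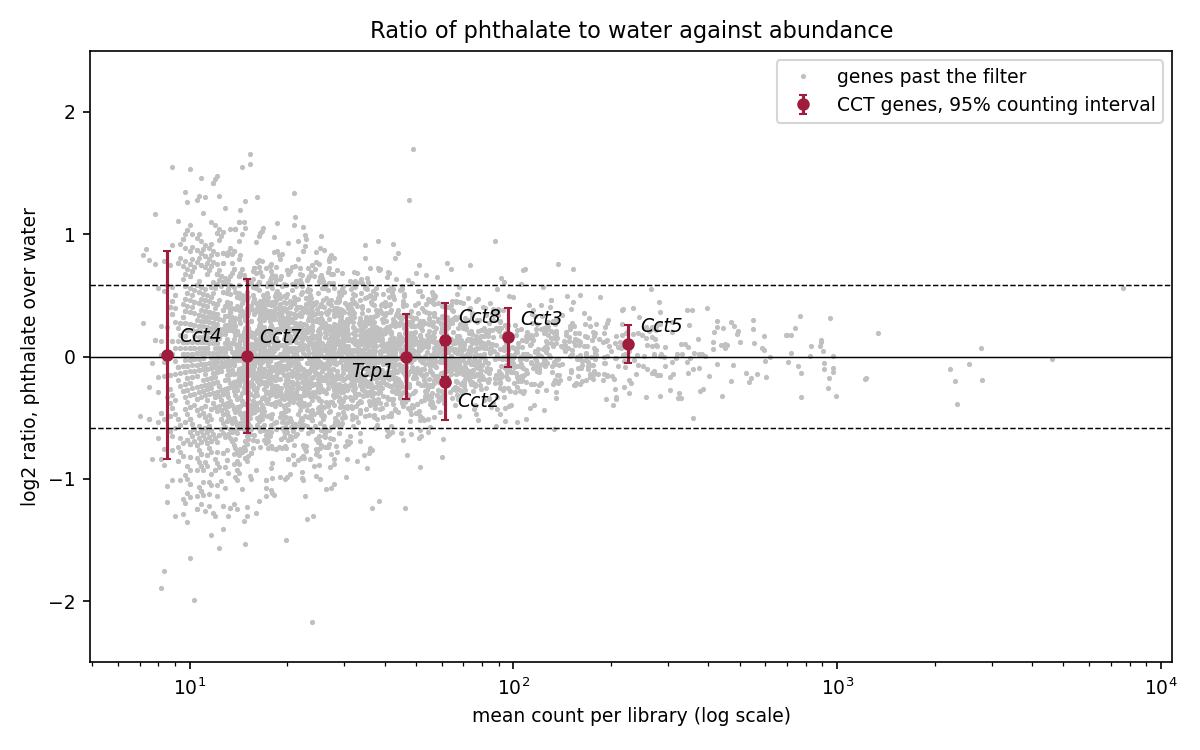
Log2 ratio of phthalate over water (vertical axis) against the mean count per library (horizontal axis, log scale) for 4644 genes in grey and 7 CCT genes in red with 95% counting intervals. Dashed lines mark 1.5-fold; the 7 members lie between -0.21 and 0.16 and each interval holds 0.

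Summed over the 8 genes, CCT took 458, 616 and 476 counts after water and 456, 553 and 533 after phthalate. These were 0.170%, 0.205% and 0.168% of library counts against 0.181%, 0.187% and 0.194%. The phthalate oocytes lay inside the range set by the water oocytes. The group share was 0.181% for water (95% exact binomial interval 0.173 to 0.191) and 0.188% for phthalate (0.178 to 0.197). The log2 ratio of the sums was 0.065 (-0.038 to 0.17), a ratio of 1.05 with bounds of 0.974 and 1.12, and with counts halved the bounds were 0.945 and 1.16. These bounds do not cover the spread between oocytes or animals.

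Because Cct5 dominates the sum, it was also taken without Cct5. The other 7 genes had 880 water and 859 phthalate counts, with a log2 ratio of 0.037 (-0.10 to 0.17). Per ERCC count (synthetic spike-in RNA) the summed CCT counts were 0.608, 1.82 and 1.52 after water and 1.03, 1.11 and 1.83 after phthalate. That measure overlapped between the groups and varied most within the water group, where ERCC counts ranged from 313 to 753.

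The members were compared with their own mean in each oocyte. In water oocyte 2, 7 of 7 genes were above their own mean of log2 CPM, with a median deviation of 0.21. In phthalate oocyte 3, 6 of 7 were above, with a median deviation of 0.34. In water oocyte 3, 1 of 7 (Tcp1) was above its mean, with a median deviation of -0.19. The other 3 oocytes were mixed: 2 of 7 were above in water oocyte 1 (median deviation -0.063), 3 of 7 in phthalate oocyte 1 (-0.23) and 4 of 7 in phthalate oocyte 2 (0.029). Among the 2784 genes averaging 20 or more counts, between 50.2% and 54.0% were above their own mean in each oocyte. Whether the members move together more than other genes was not tested. The 2 oocytes with the most members above their mean belonged to different groups.

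Cct2 was lowest in phthalate oocyte 2, where Cct3 was at its highest in CPM. Among the 7 members past the filter, the ratio of the highest to the lowest CPM was smallest for Cct5, at 1.27, and largest for Cct4, at 7.04, where the lowest value rests on 2 counts. The variance of a gene over the 6 oocytes relative to that of independent counts at a constant level was 3.99 for Cct2, 3.86 for Cct3, 2.56 for Tcp1, 2.41 for Cct8 and 1.77 for Cct5. The median of this index was 2.53 over genes averaging 20 or more counts and 4.74 over those with at least 100, which include Cct5.

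The genes whose pattern over the 6 oocytes was nearest to the summed CCT level were chosen by the root-mean-square difference of centred log2 CPM among 2779 genes averaging 20 or more counts. They were Dicer1, which encodes the small RNA processing enzyme Dicer (0.059), Baiap2l1 (0.065), Cpeb1, which encodes a protein that binds the cytoplasmic polyadenylation element (0.069), Klf17 (0.077) and Psmg1, which encodes a proteasome assembly chaperone (0.079). The median over the genes was 0.32. Dicer1 had 185, 253 and 201 counts after water and 189, 210 and 203 after phthalate, highest in CPM in water oocyte 2 (850) and then in phthalate oocyte 3 (790), the pair in which CCT was highest. With 6 points that share libraries, the nearest of 2779 genes is a description only.

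The partners of CCT were read from 11 lists of chaperones, cofactors and clients. They named 100 genes, of which 62 passed the filter. Past 1.5-fold were 8 of the 62, 3 higher and 5 lower in the phthalate group. That was 12.9% beside the 15.1% of all genes, so the pooled share was near the background. Among the 50 averaging 20 or more counts, 2 were past 1.5-fold, beside 8.12% of 2784 such genes. The other related genes past 1.5-fold averaged below 20 counts, where 25.5% of 1860 genes over the whole table were past it. The groups did not overlap for 9 of the 62, beside 10.1% of all genes.

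Among the cofactors that act on CCT directly, prefoldin had all 6 subunits past the filter and 0 past 1.5-fold, with a median log2 ratio of -0.12. The median ran from -0.21 without water oocyte 2 to -0.0014 without water oocyte 3, and it was 0.028 without phthalate oocyte 3. Its most counted subunits were Pfdn5, with 109, 94 and 94 counts after water and 62, 130 and 60 after phthalate, and Pfdn1, with 87, 83 and 82 against 93, 99 and 76. Both overlapped between the groups. Of the phosducin-like cofactors, which bind CCT and modulate its folding of tubulin, actin and G-protein beta subunits, Txndc9 was the most counted. It had 928, 944 and 917 CPM after water and 1000, 1030 and 1050 after phthalate. Each phthalate oocyte was above each water oocyte, and the log2 ratio was 0.14, with a lower bound of 0.0029 and an upper bound of 0.29. Pdcl3 had 38, 47 and 44 counts against 38, 30 and 27, with a log2 ratio of -0.37 (-0.77 to 0.024).

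The tubulin folding cofactors take tubulin on after CCT. Of 7, 4 passed the filter and 0 were past 1.5-fold; their median log2 ratio was -0.40, and it was -0.25 without water oocyte 1 and -0.24 without phthalate oocyte 1. Tbcb, which binds alpha-tubulin, had 309, 259 and 233 CPM after water and 205, 196 and 210 after phthalate, and the groups did not overlap (log2 ratio -0.39, -0.69 to -0.098). Arl2, a small GTPase that works with these cofactors, had 230, 212 and 187 against 216, 245 and 300, with a log2 ratio of 0.27 (-0.021 to 0.57). Tbcd, named after its values were seen, did not pass the filter, with 6, 10 and 8 counts after water and 0, 2 and 0 after phthalate, without overlap. It is therefore outside the count of 0 and the median. With each group taken as 1 sample, these differences were not tested.

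Of the 16 actin and tubulin clients, 12 passed the filter, 3 with a ratio above 0 and 9 below, with a median log2 ratio of -0.20. Over all genes past the filter, 51.2% were above 0. Leaving out water oocyte 1 brought that median to -0.016, and leaving out phthalate oocyte 2 or 3 gave -0.078 or -0.33. Tubg1, which encodes gamma-tubulin, was the member past 1.5-fold, at -0.76 (-1.49 to -0.069) from 50 water and 28 phthalate counts. Tubb4b, a beta-tubulin, was the most counted, with 693, 531 and 599 counts against 430, 517 and 624. Its groups overlapped, and its log2 ratio was -0.14 (-0.24 to -0.044). Tuba4a, an alpha-tubulin, had 228, 206 and 172 counts against 225, 247 and 221, with a log2 ratio of 0.27 (0.11 to 0.43), and its groups overlapped too. The actin genes Actb and Actg1 had log2 ratios of -0.22 (-0.71 to 0.26) and -0.57 (-0.95 to -0.20), both with overlapping groups. Tubulin and actin genes have close paralogs, between which counting could split reads.

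Of 13 other CCT clients, 6 passed the filter and had a median log2 ratio of 0.14, which was -0.051 without water oocyte 2 and -0.0084 without phthalate oocyte 1. Plk1, a mitotic and meiotic kinase, had 72, 68 and 58 counts against 49, 60 and 58 (-0.17, -0.48 to 0.13). Gnb4, a G-protein beta subunit, had 40, 58 and 47 against 67, 45 and 41 (0.15, -0.19 to 0.49). Gnb1, also a G-protein beta subunit, was past 1.5-fold at -0.59 (-1.29 to 0.090), from 49 and 31 counts.

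Chaperones that share clients with CCT or feed it were also present. Hspa8, the constitutive HSP70, had 277, 378 and 430 counts after water and 429, 402 and 310 after phthalate (log2 ratio 0.14, 0.024 to 0.27), with overlap. Dnaja1, an HSP70 co-chaperone, had a log2 ratio of -0.098, and Ruvbl2 (-0.024) and Pdrg1 (0.18), of the R2TP and prefoldin-like complex, also overlapped between the groups. Hsp90aa1 was the most counted chaperone of the lists, with 2220, 3266 and 2832 counts against 2681, 2762 and 2874 (0.072, 0.028 to 0.12). Hsp90ab1, its close paralog, had 263, 355 and 242 against 330, 375 and 291 (0.28, 0.15 to 0.42), with overlap. The HSP90 system had 9 genes past the filter, 4 above 0 and 5 below, with a median log2 ratio of -0.34 that moved to -0.10 without water oocyte 3 and to -0.080 or -0.044 when phthalate oocyte 1 or 2 was left out; with no filter on low counts it was also -0.080. The groups did not overlap for 3 of the 9, beside 10.1% of all genes, a difference that was not tested. They are named after their values were seen: the co-chaperone genes Stip1 (-0.35) and Ahsa1 (-0.42) were lower and Fkbp5 (0.42) was higher after phthalate. Ptges3, the HSP90 co-chaperone p23, had 22, 44 and 31 counts against 27, 14 and 15, a log2 ratio of -0.72 (-1.22 to -0.23), and its groups overlapped. The complex that binds nascent chains at the ribosome had 3 genes past the filter and a median log2 ratio of -0.058. Its most counted genes, Naca (-0.098) and Btf3 (-0.058), were both below 0 with overlapping groups. Btf3l4, the member past 1.5-fold, had 26, 23 and 27 counts against 32, 42 and 43. Its groups did not overlap, and its log2 ratio was 0.69 (0.27 to 1.13).

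The remaining genes past 1.5-fold had mean counts below 20. The remaining genes were Hspa4l at -0.59, Stub1 at -1.19, Chordc1 at 0.94 and Hsf1 at 0.87. Stub1 had 14, 11 and 11 counts after water and 5, 7 and 3 after phthalate, with an interval from -2.17 to -0.29. In the HSP70 system the groups did not overlap for 2 of 13 genes past the filter: Stub1, lower after phthalate, and Dnajb6 (0.48), higher. Hsf1, which encodes the main heat shock transcription factor, had 11, 10 and 9 counts after water and 19, 10 and 23 after phthalate, with an interval from 0.19 to 1.56. In CPM, phthalate oocyte 2 (33.1) lay among the water oocytes (31.7 to 39.6). Of the 8 related genes past 1.5-fold, Stub1 stayed past it with any 1 oocyte left out and the other 7 did not. Leaving out phthalate oocyte 3 brought Hsf1 to 0.57, Btf3l4 to 0.58 and Chordc1 to 0.34, all short of 1.5-fold. Ptges3 was at -0.46 without water oocyte 2 and also without phthalate oocyte 2. Tubg1 was at -0.45 without water oocyte 3 and at -0.50 without phthalate oocyte 1. Gnb1 was short of it in 4 of the 6 cases, all but those that left out water oocyte 3 or phthalate oocyte 3. For Hspa4l this held in 3 cases, those that left out water oocyte 3, phthalate oocyte 1 or phthalate oocyte 2. Hsf2, also a heat shock factor, had 4 counts in all. Genes averaging 5 to 20 counts were past 1.5-fold in 25.5% of 1860 cases.

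Among the chaperonins of other compartments, Hspe1 and Hspd1 encode the mitochondrial pair HSP10 and HSP60. Hspe1 had 198, 161 and 187 CPM after water and 155, 126 and 144 after phthalate, without overlap (log2 ratio -0.37, -0.73 to -0.011). Hspd1 had 64.8, 80.6 and 45.8 against 69.6, 56.4 and 58.4, with overlap (-0.065, -0.65 to 0.51). Of the 5 CCT-like genes on this list, Cct6b, Cct8l1 and Bbs12 had 0 counts in the 6 oocytes, which allows up to 3 counts in each, and Bbs10 had 5 counts in all. The fifth, Mkks, passed the filter with 11, 17 and 17 counts after water and 17, 18 and 22 after phthalate; its groups overlapped in CPM, with a log2 ratio of 0.41 and a lower bound of -0.18.

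**Figure D4:**
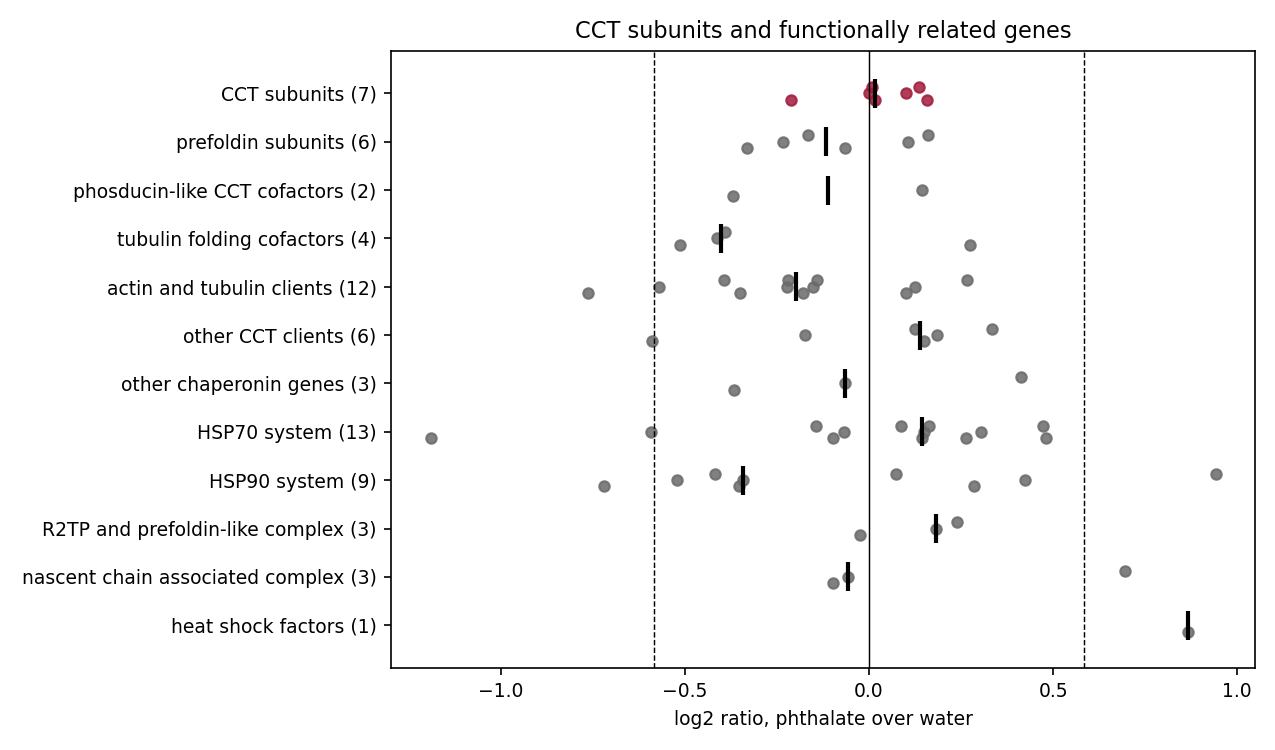
Log2 ratio of phthalate over water (horizontal axis) for the genes past the filter in the CCT list (red) and 11 related lists (grey), with the number of genes in brackets. Bars are medians and dashed lines mark 1.5-fold; the CCT genes lie between -0.21 and 0.16, and 8 of the 62 related genes lie past 1.5-fold.

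The libraries held 252267 to 300917 gene counts. Of 15 oocyte markers, 14 had a count, and together they took from 3.02% to 3.50% of counts in each oocyte, with overlap between the groups. Of 20 cumulus and granulosa markers, 11 had a count; they summed to 39, 23 and 13 counts after water and 19, 27 and 10 after phthalate, at most 0.0145% of a library. Foxl2, Amh, Amhr2, Star, Ptx3 and Tnfaip6 were among the 9 at 0. Nr5a2, which encodes a nuclear receptor of granulosa cells, supplied most of this sum, with 32, 23 and 9 counts after water and 16, 15 and 8 after phthalate. Without it, a step chosen after its values were seen, the other markers summed to 7, 0 and 4 against 3, 12 and 2. Of 11 markers of other ovarian cells, 4 had a count, and they summed to 14, 29 and 20 against 16, 14 and 14, at most 0.00964% of a library; Cyp17a1, Col1a1, Cdh5 and Ptprc were among the 7 at 0. Pecam1, a marker of endothelium, supplied most of that sum, with 9, 25 and 11 counts against 12, 8 and 12, and without it, again a step chosen after its values were seen, the others summed to 5, 4 and 9 against 4, 6 and 2. The part of follicle cell RNA in the CCT levels was not tested. Fewer messenger RNA molecules of a gene per oocyte and a larger total of other RNA cannot be told apart in shares of a library.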

How the data were processed

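Single-oocyte RNA was measured in 6 libraries made with Smart-seq3, an oligo(dT)-primed method with template switching and PCR, and sequenced as read pairs of 150 bases, per the labels' protocols. The authors deposited raw counts per gene symbol, not normalized. The submitters' processing notes name cutadapt, Trimmomatic, HISAT2, DESeq2 and the build mm10; the counting tool, annotation, use of strand and handling of molecular identifiers are not given in the sources used here. Reads that match several places may be lost in counting, and neither PCR copies nor the mates of a pair are independent molecules, so intervals cover counting error only. In each library 68.0% to 71.1% of counts from 1 to 20 were even.

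ERCC rows (92) stayed out of totals. The ratios were computed on all 4644 genes past edgeR's filterByExpr (edgeR 4.0.16, R 4.3.3, minimum count 10, minimum total 15): counts were summed per group, divided by totals scaled by TMM, and given as log2 ratios with no pseudocount and with a 95% Clopper-Pearson interval for the split of each pair of sums (scipy 1.17.1). A group sum of 0 was set to 3 counts, and no ratio is given where both sums are at most 3. Deviations and likeness used log2 CPM with a prior count of 2. The ratio code was tested on simulated counts drawn independently from Poisson distributions. Counts in these libraries spread more widely, so this checked the code and not the coverage of the intervals in these data. Lengths, exons and coordinates are of GENCODE M21 (GRCm38, the same build as mm10), which held 24366 of the symbols, and promoters and pseudogenes are of RefSeq GRCm38.p6.

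Each group was taken as 1 sample, since the labels name no animal or culture for the single cells, and no test across samples was made. Named genes are the 8 members, the 2 most counted genes of each related list by CPM, genes past 1.5-fold with a mean count of at least 20, and the 5 nearest in pattern. Pfdn6, Vbp1, Actb, Actg1, Tubg1, Gnb1, Hspa4l, Stub1, Dnajb6, Chordc1, Mkks, Bbs10, Stip1, Ahsa1, Fkbp5, Tbcd, Cct6b, Cct8l1 and Bbs12 were named after their values were seen. The members and lists were chosen with earlier results of these data known. Alternatives were DESeq2 1.42.0 size factors, library totals, no filter, means of log2 CPM, halved counts, a lower fold threshold (log2 0.322) and a fold of 2, other transcript lengths and leaving out each oocyte; the sum without Cct5 and the longest transcript of any type were added after seeing the data.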

Additional observations from a re-analysis of the deposited data

How the results depend on the processing

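No paired analysis was possible because the ratios come from no test, which follows from the choice to take each group as 1 sample. The median log2 ratio of the CCT genes stayed within the spread between oocytes under all 11 alternatives, although its sign was negative under 2 of them; with 1 oocyte left out it ranged from -0.17 to 0.21. The log2 ratio of the summed counts ranged from -0.0036, without phthalate oocyte 3, to 0.19, without water oocyte 2, the oocyte with the highest share; the latter lies beyond the counting interval of the full sum. All 77 ratios of single members under the alternatives stayed within their main intervals, between -0.39 and 0.57, and the number past the fold was 0 under all 13 alternatives, among them a lower fold threshold (a log2 ratio of 0.322) and a fold of 2. Halved counts and no filter could not change a member's ratio or the members' median. A fold of 2 could not raise a count of 0. The number of members whose groups do not overlap ranged from 0 to 1 with 1 oocyte left out: Cct5 without water oocyte 2 and Cct3 without phthalate oocyte 1. The related genes past the fold numbered 8, and 15 without a filter, 26 at the lower fold threshold and 1 at a fold of 2. Over all genes the number was 701, and 3746 without a filter, 1738 at the lower fold threshold, 129 at 2 and from 951 to 1144 with 1 oocyte left out, where fewer counts are summed and more genes pass the filter. Of 121 medians of the related lists under the alternatives, 107 moved by less than the spread between oocytes. With 1 oocyte left out, those of prefoldin ranged from -0.21 to 0.028, of the actin and tubulin clients from -0.33 to -0.016, of the other clients from -0.051 to 0.23, of the tubulin cofactors from -0.41 to -0.24, of the other chaperonins from -0.25 to 0.15 and of the HSP90 system from -0.39 to -0.044. The level of Cct5 was 2.51 times that of the next member, and 3.88 times with the longest transcript of any type, chosen after seeing the data. A coding length for Cct6a was not used here. Without a filter Cct6a still gave no ratio, with 2 counts per group.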
